A study of Homo sapiens with 9 samples.

Results

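The direct comparison of 2 treatments of DU145 cells, H93 against SAHA, was examined across all genes with a measurable level. DU145 is an established line of human prostate carcinoma cells. The labels give the cells as wild type and describe 3 groups of 3 RNA-seq libraries, all harvested after 6 days of culture with daily change of medium. The groups were cells given the solvent dimethyl sulfoxide (DMSO), cells given H93 at 20 μM, and cells given SAHA at 500 nM. H93 is described in the title of the series as UHRF1-targeted, and it is known here by its code name only. Each compound was used at 1 dose, the doses were not matched, and every value below compares these treatments as given. The comparison rested on the 6 H93 and SAHA libraries of the 9, with the 3 DMSO libraries used for the common estimate of spread and for levels given side by side. A gene was included when its FPKM (a fragment count scaled for the length of the transcript and the size of the library) reached 1 in at least 3 of the 9 libraries, which 11525 of the 16772 genes in the table did. ZMYND10 lay just inside this limit, with a third-highest FPKM of 1.00069, and ZNF425 just outside it, at 0.999306. The labels do not say that the libraries of a group came from separate cultures. The p-values therefore reflect library-to-library scatter, which may be technical only, within 1 cell line.

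SAHA (vorinostat) is a hydroxamate that inhibits zinc-dependent histone deacetylases, the enzymes that remove acetyl groups from histone tails. Such inhibitors are known for raising CDKN1A, which encodes the cyclin-dependent kinase inhibitor p21, and for slowing the cell cycle. UHRF1 reads hemimethylated DNA behind the replication fork and helps bring the maintenance methyltransferase DNMT1 to it, and it also binds histone tails and acts with histone deacetylases.

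The 9 libraries were close in quality measures, but H93 and SAHA did not overlap in 2 of them. FPKM summed to between 348656 and 355741 per library, with 349003 to 349378 for H93 and 350064 to 355741 for SAHA. The 10 highest genes held between 5.34% and 5.75% of the sum, with 5.34% to 5.48% for H93 and 5.62% to 5.75% for SAHA. Relative depths ran from 0.875 to 1.0 of the deepest library, while the absolute depth is unknown. Over all genes, Pearson's r of log2(FPKM + 1) was 0.9987 to 0.9988 between H93 libraries, 0.9986 to 0.9987 between SAHA libraries and 0.9973 to 0.9976 between a H93 and a SAHA library. All 6 epithelial markers (EPCAM, KRT7, KRT8, KRT18, KRT19 and CDH1) reached an FPKM of 1, and their summed level was 2125 to 2167 with H93 and 2044 to 2124 with SAHA. The keratins made up most of that sum, and the members differed in direction. EPCAM was lower with H93 (30.1, 31.7 and 29.6) than with SAHA (39.4, 38.3 and 35.7). CDH1 was also lower (4.04, 4.70 and 4.27 against 4.88, 5.27 and 5.13), as was KRT18. KRT7 and KRT19 were higher with H93 without overlap, and KRT8 overlapped. The prostate luminal marker TMPRSS2 stayed under 1 in every library. The endothelial markers PECAM1, VWF and CDH5 and the leukocyte markers PTPRC and LYZ also stayed under 1, CD14 reached it in 1 H93 and 1 SAHA library (at most 1.13), and summed fibroblast markers were 3.94 to 4.65 with H93 and 3.90 to 6.82 with SAHA.

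The profiles of H93 and SAHA differed at many genes by small amounts. At an adjusted p under 0.05 (limma, two-sided, Benjamini-Hochberg over all 11525 genes), 3629 genes differed, 31.5% of those tested. Unadjusted, 4927 genes (42.8%) were under 0.05. Of the tested genes 2031 (17.6%) were higher with H93 and 1598 (13.9%) were lower. Differences are in log2(FPKM + 1), H93 minus SAHA, a scale on which the change of a gene at low FPKM is understated. The median absolute difference was 0.0848 over all tested genes and 0.18 over those called, which is 1.13-fold, and 298 called genes (8.21%) differed by at least 1.25-fold. A difference of at least 1.5-fold was called for 17 genes (0.148%), of which 11 (0.0954%) were higher with H93 and 6 (0.0521%) were lower. That balance moved with the scale, to 31 higher and 36 lower with a pseudocount of 0.1. For 11403 genes (98.9%) the 95% confidence interval lay wholly within 1.5-fold in either direction on this scale. For genes at low FPKM that does not bound the ratio of the FPKM values themselves. With a pseudocount of 0.1 the count was 11017. The 3 H93 libraries and the 3 SAHA libraries did not overlap for 5120 genes (44.4%), and 3526 genes (30.6%) were both called and free of overlap. The median difference over all tested genes was 0.0159. Every count in a gene list below is to be read against 17.6% higher, 13.9% lower and this median, and a share near these is not a result about the list. Below, levels are mean FPKM ± SD over 3 libraries, and a bracket after them holds the difference H93 minus SAHA and limma's adjusted p. DMSO levels stand beside the others as values only, since a comparison of either compound with DMSO would share the same 3 libraries.

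**Figure D1:**
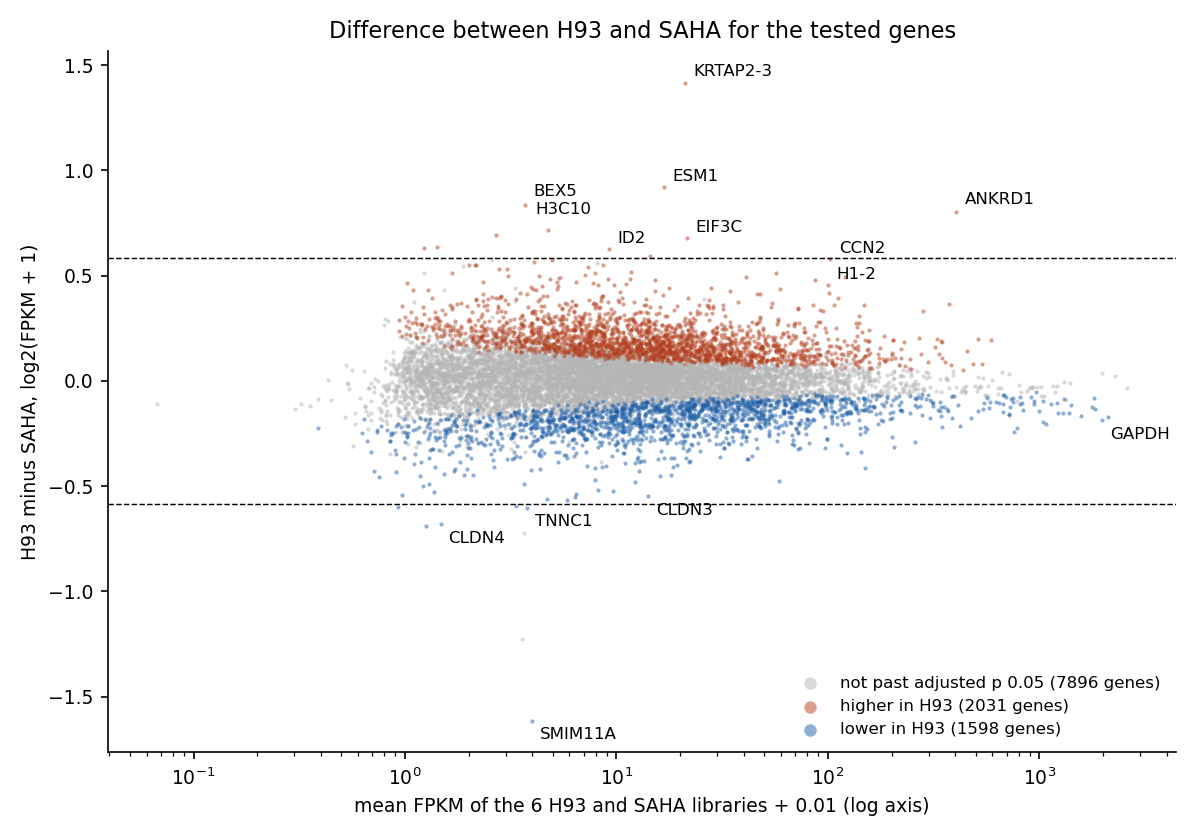
Mean FPKM of the 6 libraries plus 0.01 (log axis) against the difference H93 minus SAHA in log2(FPKM + 1) for the 11525 tested genes, with dashed lines at 1.5-fold. The 2031 genes called higher (red) and the 1598 called lower (blue) lie mostly inside the dashed lines, and KRTAP2-3, at 1.42, is the highest point.

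The gene with the largest called rise from SAHA to H93 was KRTAP2-3, which encodes a keratin-associated protein of the hair shaft (chromosome 17, 41059240 to 41060114, minus strand, by GENCODE release 29 on GRCh38). Its FPKM was 1.36, 1.25 and 1.19 in the DMSO libraries, 10.9, 11.2 and 11.1 in the SAHA libraries and 32.8, 30.5 and 30.3 in the H93 libraries. The difference was 1.42 (SE 0.044; limma, adjusted p = 2.38e-09). All 3 H93 libraries lay above all 3 SAHA libraries, and the ratio of the means was 2.82. KRTAP2-3 belongs to a family of near-identical genes, so the split of its reads from KRTAP2-4 is uncertain. ESM1 encodes endocan, a secreted proteoglycan best known from endothelium (chromosome 5, 54977864 to 55022671, minus strand). Its FPKM was 0.346, 0.358 and 0.198 with DMSO, 10.9, 11.8 and 11.2 with SAHA and 22.3, 22.9 and 21.9 with H93. H93 minus SAHA came to 0.92 (SE 0.053; limma, adjusted p = 1.66e-06), and the groups did not overlap. BEX5, of the brain-expressed X-linked family, had 2.42, 2.49 and 2.15 with SAHA and 4.33, 5.71 and 5.00 with H93 against a mean of 0.181 with DMSO, and the groups were apart (0.84, adjusted p = 5.76e-05).

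Among genes at high levels, ANKRD1 and CCN2 stood out, both textbook targets of the transcriptional coactivator YAP. ANKRD1, a nuclear ankyrin-repeat protein (chromosome 10, 90912096 to 90921276, minus strand), had an FPKM of 78.9, 79.8 and 78.8 with DMSO, 293, 303 and 289 with SAHA and 518, 522 and 507 with H93. Between H93 and SAHA the difference was 0.80 (SE 0.023; limma, adjusted p = 1.85e-09). CCN2, a secreted matricellular protein also called connective tissue growth factor (chromosome 6, 131948176 to 131951373, minus strand), had 47.7, 48.4 and 49.4 with DMSO, 83.5, 79.5 and 83.8 with SAHA and 121, 124 and 125 with H93. The difference was 0.58 (SE 0.027; limma, adjusted p = 2.17e-07). For both genes the lowest H93 library was above the highest SAHA library, and the 3 groups were ordered DMSO, SAHA, H93 without overlap.

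The other genes among the 15 largest rises were secreted factors, regulators and histone genes. CCL20, a chemokine for CCR6-bearing cells, stood at 11.3 ± 1.01 with SAHA and 17.6 ± 0.516 with H93 (0.59, adjusted p = 0.000143). NTS, the precursor of the peptide neurotensin, stood at 0.746 ± 0.102 with SAHA and 1.70 ± 0.159 with H93 (0.63, adjusted p = 8.37e-05). It reached an FPKM of 1 in the H93 libraries only (1.52, 1.83 and 1.74). NTS thus passed the filter through the group in which it was high, and its place among the rises is to be read with that limit. ID2, an inhibitor of basic helix-loop-helix transcription factors, differed in its order: 11.1 ± 1.62 with DMSO, 7.08 ± 0.415 with SAHA and 11.4 ± 0.498 with H93 (0.62, adjusted p = 0.00018), so that SAHA was the lowest group. DDIT4L, an mTOR pathway regulator, had a difference of 0.57, CPEB4, which binds regulatory elements in mRNAs, 0.56, and GKN2, a gastrokine of stomach epithelium, 0.55. The histone genes H3C10 (0.72), H2AW (0.70), H4C12 (0.64) and H2AC13 (0.55) completed the set. H4C12 had 0.804, 1.34 and 0.671 with DMSO, 0.710, 1.07 and 0.854 with SAHA and 2.01, 1.61 and 2.15 with H93. Like NTS, it passed the filter only through the group in which it was high, and the same limit applies. The call of H2AW was lost without H93 replicate 1, without H93 replicate 3 and without SAHA replicate 1, where its difference was 0.41, and also with no filter on low values and under robust empirical Bayes moderation.

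Falls from SAHA to H93 were called for 22.5% of the 2881 genes at the highest level and for 8.15% of the 2882 at the lowest. Rises were called for 21.7% and 10.4% of the same genes, so calls in either direction were more frequent at high levels. Among named genes whose groups did not overlap, the largest fall was that of CLDN4. CLDN4, a claudin of tight junctions (chromosome 7, 73799542 to 73832693, plus strand), had an FPKM of 3.86, 3.13 and 4.02 with DMSO, 1.85, 1.92 and 2.34 with SAHA and 0.950, 0.972 and 0.752 with H93. H93 minus SAHA came to -0.68 (SE 0.085; limma, adjusted p = 0.000188). The H93 mean was 0.438 of the SAHA mean and the groups did not overlap. CLDN3, the neighbouring claudin (chromosome 7, 73768997 to 73770270, minus strand), had 22.8, 24.8 and 21.8 with DMSO, 17.1, 16.6 and 17.1 with SAHA and 11.3, 10.1 and 12.5 with H93. Between H93 and SAHA the difference was -0.55 (SE 0.063; limma, adjusted p = 0.000122). All 3 H93 libraries were below all SAHA libraries, which were below all DMSO libraries, for both claudins.

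TNNC1, the troponin C of slow muscle and heart, fell from 4.75 ± 0.261 with SAHA to 2.79 ± 0.235 with H93 (-0.60, adjusted p = 5.76e-05), against 13 ± 0.928 with DMSO. TERT, the catalytic subunit of telomerase, stood at 1.84, 1.77 and 1.77 with SAHA and 1.02, 0.914 and 0.891 with H93 (-0.53, adjusted p = 0.000104), against a mean of 3.33 with DMSO, and its groups were apart. PDZK1IP1, a small membrane protein, had 1.11, 1.20 and 1.58 with SAHA and 0.596, 0.813 and 0.198 with H93 (-0.60, adjusted p = 0.00404). The remaining genes of the 15 largest falls were the orphan receptor GPR27 (-0.59), the decoy receptor TNFRSF6B (-0.57), the leukocyte integrin subunit ITGB2 (-0.56), the copine CPNE7 (-0.55), the immunoproteasome subunit PSMB10 (-0.54), the cytokine receptor IL27RA (-0.52), the aldehyde dehydrogenase ALDH3B1 (-0.52), PALM3 (-0.50), the apolipoprotein APOC1 (-0.49) and SUSD2 (-0.49). No gene stood under an FPKM of 0.1 in all libraries of one treatment and at 1 or more in all of the other (0 genes).

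**Figure D2:**
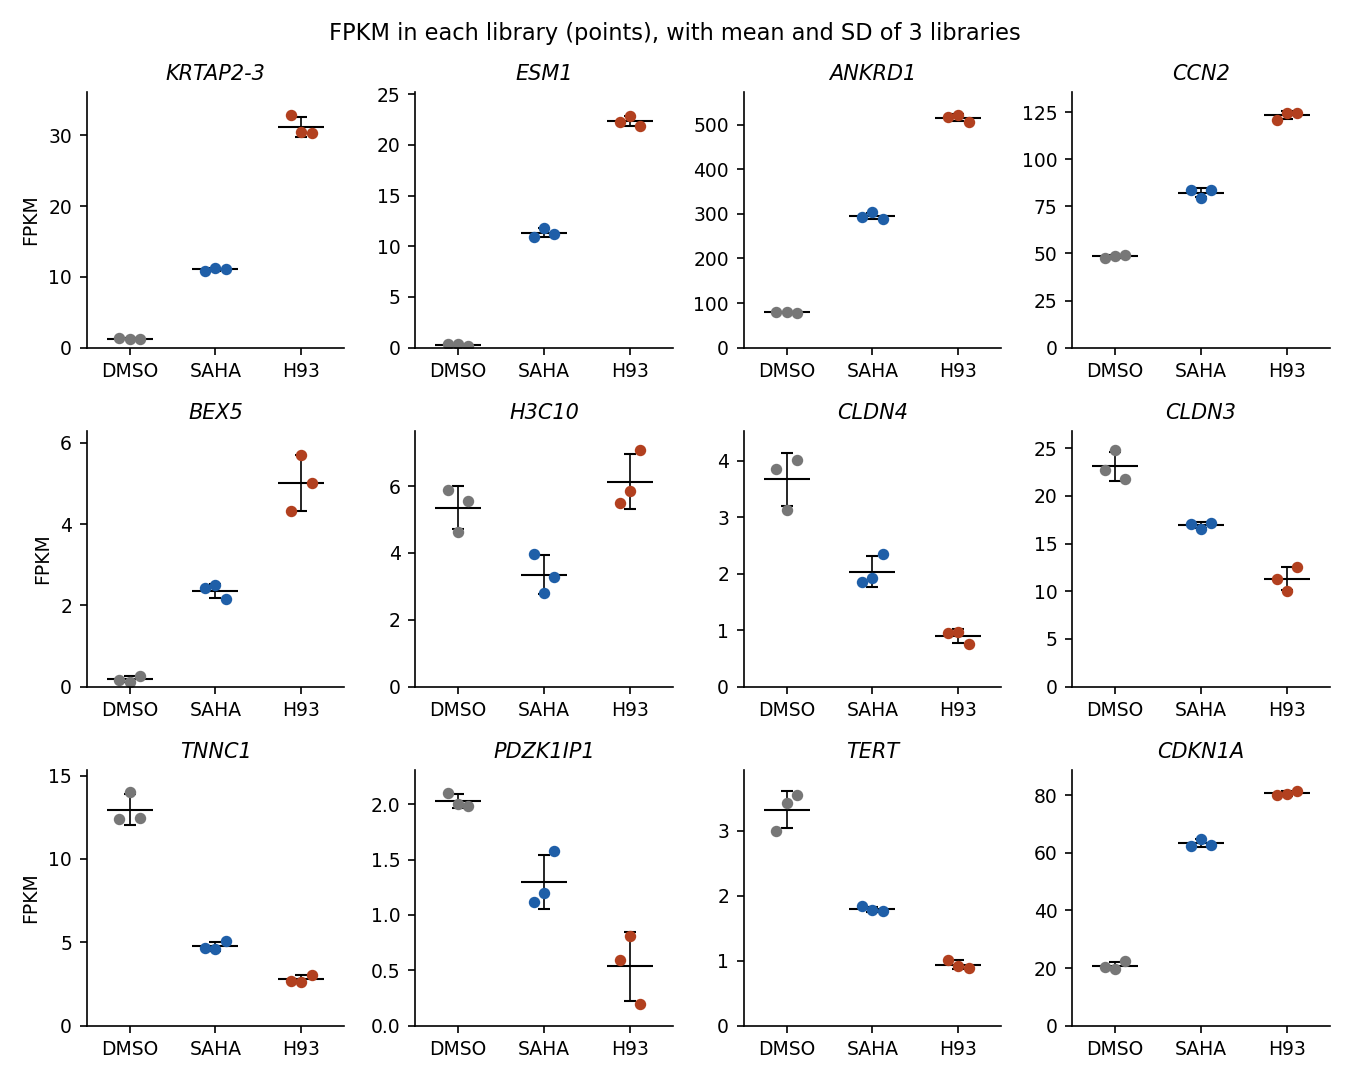
FPKM of 12 genes in each of the 9 libraries (points), with the mean and SD of 3 libraries (bars), for DMSO, SAHA and H93, each panel with its own linear axis from 0. KRTAP2-3, ESM1, ANKRD1, CCN2, BEX5 and CDKN1A run upward and CLDN4, CLDN3, TNNC1, PDZK1IP1 and TERT downward from DMSO through SAHA to H93, while H3C10 is lowest with SAHA.

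To show the proximal sequence at both ends of the comparison, the 250 bases before the start site are printed for 5 of the largest rises and for both claudins. The RefSeq promoter table (GRCh38.p14) held 14 of the 15 largest rises, all but H2AW, and 10 of the 15 largest falls, all but TNNC1, GPR27, ITGB2, CPNE7 and SUSD2. Capitals mark matches, on either strand, to TATAAA (the TATA box), GGGCGG (the GC box), TGANTCA (the AP-1 site) and CATTCC (bound by TEAD factors, the partners of YAP). A run of capitals can hold overlapping matches. The CATTCC motif was added after ANKRD1 and CCN2 were seen among the rises. The windows are chr17:41060115-41060364 on the minus strand for KRTAP2-3, chr5:54985594-54985843 on the minus strand for ESM1, chr10:90921088-90921337 on the minus strand for ANKRD1, chr6:131951373-131951622 on the minus strand for CCN2, chr6:27809801-27810050 on the plus strand for H3C10, chr7:73770271-73770520 on the minus strand for CLDN3 and chr7:73830746-73830995 on the plus strand for CLDN4, and each is written 5′ to 3′ towards the RefSeq start of its gene, which for ESM1, ANKRD1 and CLDN4 lies inside the longer span that GENCODE gives.
KRTAP2-3: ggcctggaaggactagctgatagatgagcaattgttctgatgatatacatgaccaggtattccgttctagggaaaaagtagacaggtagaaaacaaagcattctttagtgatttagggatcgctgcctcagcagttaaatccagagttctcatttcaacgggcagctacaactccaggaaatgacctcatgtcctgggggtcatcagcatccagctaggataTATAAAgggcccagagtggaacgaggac
ESM1: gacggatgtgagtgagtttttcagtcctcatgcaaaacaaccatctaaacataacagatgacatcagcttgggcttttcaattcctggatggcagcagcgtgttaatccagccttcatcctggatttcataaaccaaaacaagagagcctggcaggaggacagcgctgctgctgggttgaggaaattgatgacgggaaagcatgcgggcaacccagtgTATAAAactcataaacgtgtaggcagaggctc
ANKRD1: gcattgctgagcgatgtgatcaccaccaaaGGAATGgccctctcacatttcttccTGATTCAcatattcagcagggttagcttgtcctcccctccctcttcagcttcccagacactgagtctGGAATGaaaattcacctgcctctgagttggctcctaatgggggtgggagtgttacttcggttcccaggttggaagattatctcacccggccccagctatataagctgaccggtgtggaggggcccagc
CCN2: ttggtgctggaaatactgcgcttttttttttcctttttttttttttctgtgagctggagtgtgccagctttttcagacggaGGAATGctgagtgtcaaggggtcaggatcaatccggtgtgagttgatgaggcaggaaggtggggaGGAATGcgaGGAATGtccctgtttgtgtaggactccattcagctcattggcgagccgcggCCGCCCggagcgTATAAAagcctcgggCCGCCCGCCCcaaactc
H3C10: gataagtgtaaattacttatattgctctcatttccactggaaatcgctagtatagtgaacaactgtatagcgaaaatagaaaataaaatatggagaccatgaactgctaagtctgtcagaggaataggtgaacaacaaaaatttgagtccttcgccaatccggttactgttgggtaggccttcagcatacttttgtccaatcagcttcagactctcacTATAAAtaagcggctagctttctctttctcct
CLDN3: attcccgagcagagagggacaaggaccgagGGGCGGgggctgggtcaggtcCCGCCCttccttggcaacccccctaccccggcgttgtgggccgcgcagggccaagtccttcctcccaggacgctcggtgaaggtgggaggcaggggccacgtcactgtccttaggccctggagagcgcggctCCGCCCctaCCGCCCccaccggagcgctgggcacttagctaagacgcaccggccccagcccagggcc
CLDN4: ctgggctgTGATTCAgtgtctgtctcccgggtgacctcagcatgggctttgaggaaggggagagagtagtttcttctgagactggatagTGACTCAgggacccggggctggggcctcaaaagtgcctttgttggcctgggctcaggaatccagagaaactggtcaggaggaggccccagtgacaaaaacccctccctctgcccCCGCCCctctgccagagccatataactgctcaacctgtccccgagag

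TATAAA began 28 bases before the start in KRTAP2-3 and 32 bases before it in ESM1, CCN2 and H3C10. CATTCC matches on the minus strand lay 220 and 128 bases before the start of ANKRD1, and 169, 104 and 95 bases before that of CCN2. In windows of 300 bases (250 before and 50 after the start), TATAAA was found in 9 of the 14 matched rises (KRTAP2-3, ESM1, CCN2, CCL20, DDIT4L, GKN2, H2AC13, H3C10 and H4C12) and in 0 of the 10 matched falls. The share was 12% of all 27305 promoters in the table and 5.24% of the 9391 promoters matched to tested genes. CATTCC was found in 5 of the 14 (ANKRD1, CCN2, CCL20, CPEB4 and NTS) and 0 of the 10, against 14% and 10.5%. GGGCGG was found in 5 of the 14 and 7 of the 10, against 44.6% and 72.6%. TGANTCA was found in 1 of the 14 (ANKRD1) and 1 of the 10 (CLDN4), against 7.76% and 4.21%, and the E-box CACGTG in 0 of the 14 and 2 of the 10 (ALDH3B1 and TERT), against 7.43% and 10.3%. These are matches of letters in the reference and not measured binding.

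The genes of the labelled target and of the deacetylases differed little between the treatments. UHRF1 had an FPKM of 51.9, 50.4 and 52.4 with DMSO, 38.9, 37.5 and 36.8 with SAHA and 35.5, 34.3 and 33.0 with H93. The difference was -0.14 (SE 0.032; limma, adjusted p = 0.00795). DNMT1 stood at 88.7 ± 1.36 with SAHA and 81.0 ± 0.921 with H93 (-0.13, adjusted p = 0.00158). The de novo methyltransferases did not pass: the difference was -0.15 for DNMT3A (95% confidence interval -0.27 to -0.03; limma, adjusted p = 0.0581) and -0.12 for DNMT3B (-0.25 to 0.02; adjusted p = 0.179). Of the 18 tested genes of the DNA methylation machinery, 4 were lower with H93 and 1 was higher (22.2% and 5.56%, against 13.9% and 17.6% of all genes; median -0.0646), and the 5 for maintenance methylation held 3 of the 4. The 4 lower genes were UHRF1, DNMT1, PCNA (-0.09), the sliding clamp of replication, and MBD3 (-0.17), a subunit of the NuRD deacetylase complex, and the higher one was the methyl-CpG reader MBD1 (0.23). The mRNA level of UHRF1 is not a measure of the activity of its protein.

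The class I deacetylases HDAC1, HDAC2 and HDAC3 had differences of -0.01 (-0.07 to 0.05; limma, adjusted p = 0.749), 0.05 (-0.02 to 0.13; 0.267) and 0.05 (-0.05 to 0.15; 0.439), with overlapping libraries in each case. In the list of 34 deacetylases, acetyltransferases and their partners, 7 were lower with H93 and 1 was higher (20.6% and 2.94%, against 13.9% and 17.6% of all genes; median -0.00134). The acetyltransferase KAT2A had the largest difference, at 24.5 ± 1.05 with SAHA and 19.4 ± 0.670 with H93 (-0.32, adjusted p = 9.32e-05). The count of 7 fell to 3 without H93 replicate 1, H93 replicate 2 or SAHA replicate 3, and to 4 without SAHA replicate 1. Among 20 tested genes known to respond to deacetylase inhibitors, 5 of the 15 that typically rise were higher with H93 than with SAHA, and of the 5 that typically fall 3 were lower and 1 was higher (over the 20, 30.0% higher and 15% lower; median 0.0395). CDKN1A had 20.2, 19.8 and 22.3 with DMSO, 62.5, 64.9 and 62.8 with SAHA and 79.97, 80.4 and 81.4 with H93. H93 minus SAHA came to 0.34 (SE 0.038; limma, adjusted p = 8.92e-05), and the groups did not overlap. CRIP2 (0.45), the transcription factor KLF4 (0.32) and the actin-severing gelsolin GSN (0.24) were likewise higher, and thymidylate synthase TYMS was lower, at 155 ± 1.27 with SAHA and 130.1 ± 3.02 with H93 (-0.25, adjusted p = 2.57e-05).

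Polycomb genes gave 0 calls among 20, with differences between -0.144 and 0.13, while 6 of 17 genes of H3K9 methylation were lower with H93, among them the reader CBX5 (-0.23) and the methyltransferase EHMT2 (-0.18). Together 16.2% of the 37 were lower and 0 were higher, against 13.9% and 17.6% of all genes (median -0.0292). The count of 6 fell to 3 without H93 replicate 1, H93 replicate 2 or SAHA replicate 1. Among 9 tested neuronal and testis genes that epithelium usually keeps silent, 0 were higher and 2 (22.2%) were lower with H93 (median 0.0267). These were the neurofilament gene INA (-0.19) and UCHL1 (-0.11), a ubiquitin hydrolase at a mean FPKM of 857 with SAHA, and the call of UCHL1 was lost under quantile normalization (limma, adjusted p = 0.630).

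Replication-dependent histone genes had the highest median of the 35 lists. These genes supply histones in S phase, and their mRNAs normally lack a poly(A) tail. Of 49 in the table, 18 passed the filter and 31 did not, and 13 of the 18 (72.2%) were higher with H93 and 0 were lower, beside 17.6% and 13.9% of all genes (median 0.403). H4C12, which is among the 13, passed the filter only through its H93 libraries. The linker histone H1-2 and H2BC12 were at the highest levels, with mean FPKM of 84.8 and 128.9 under SAHA and differences of 0.45 and 0.36. H2BC5 had 6.91, 7.39 and 8.54 with DMSO, 5.58, 5.65 and 6.09 with SAHA and 9.47, 8.48 and 8.60 with H93 (0.54, adjusted p = 0.000165), so SAHA was the lowest group and the other two overlapped. H3C10 had 5.87, 4.63 and 5.56 with DMSO, 3.96, 2.80 and 3.29 with SAHA and 5.49, 5.84 and 7.07 with H93, again with SAHA lowest. H2BC21 stood at 6.40 ± 0.0623 with DMSO, 3.38 ± 0.0829 with SAHA and 5.21 ± 0.497 with H93 (0.50, adjusted p = 9e-05). The libraries were made with a kit that selects mRNA by its poly(A) tail and histone genes have near-identical copies, so the single histone values are uncertain. H1-2 and H2BC12 were named here for their level, after their values were seen.

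Genes of S phase and mitosis were more often lower than higher. Of 58 DNA replication genes, 25 (43.1%) were lower with H93 and 3 (5.17%) were higher (against 13.9% and 17.6% of all genes; median -0.0962), with 12 of 21 polymerase and fork genes and 4 of 6 nucleotide synthesis genes among the lower ones. The fork protection factor TIMELESS had 28.5, 28.3 and 28.5 with DMSO, 19.9, 18.2 and 17.9 with SAHA and 13.6, 12.9 and 13.7 with H93. Between H93 and SAHA the difference was -0.45 (SE 0.040; limma, adjusted p = 2.81e-05). CDC45 stood at 22.9 ± 0.886 with SAHA and 18.4 ± 1.44 with H93 (-0.30, adjusted p = 0.00074). The helicase subunit MCM7 stood at 84.1 ± 3.45 with SAHA and 72.0 ± 0.755 with H93 (-0.22, adjusted p = 0.000212). The count of 12 fork genes was 7 without H93 replicate 3. Of 50 mitosis and G2/M genes, 26 (52.0%) were lower and 1 (2.0%) was higher (median -0.0917). The kinase AURKB stood at 69.2 ± 1.98 with DMSO, 74.8 ± 0.836 with SAHA and 61.4 ± 0.264 with H93 (-0.28, adjusted p = 2.65e-05). The kinase AURKA stood at 63.0 ± 1.01 with SAHA and 52.8 ± 0.392 with H93 (-0.25, adjusted p = 5.81e-05). The checkpoint kinase BUB1B stood at 42.4 ± 0.889 with SAHA and 35.9 ± 1.04 with H93 (-0.24, adjusted p = 0.000153). With DMSO, AURKA stood at 65.0 ± 1.66 and BUB1B at 45.4 ± 0.556. These kinases were all lower with H93 than in either other group, and AURKB alone among them was highest with SAHA. Of 36 homologous recombination and Fanconi genes, 6 were lower and 0 were higher (16.7% lower; median -0.0655), with RAD51AP1 at -0.20, and the count of 6 became 11 under quantile normalization.

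Targets of p53 were more often higher than lower, while the few inhibitors of the cell cycle were called in both directions. Of the 26 genes of both kinds, 8 (30.8%) were higher with H93 and 1 (3.85%) was lower, against 17.6% and 13.9% of all genes. Their median was 0.0655. Of the 18 p53 targets 6 were higher and 0 were lower, and of the 8 inhibitors 2 were higher and 1 was lower. Beside CDKN1A, the stress gene GADD45A stood at 40.8 ± 1.21 with SAHA and 54.6 ± 2.93 with H93 (0.41, adjusted p = 0.000109) and TP53INP1, a p53-induced nuclear protein, at 1.19 ± 0.0285 with SAHA and 2.13 ± 0.108 with H93 (0.51, adjusted p = 7.29e-05). DU145 is known to carry mutant p53, and the list is named for where its genes are best known. Of 26 apoptosis regulators, 8 were higher and 3 were lower (30.8% and 11.5%, the latter below the 13.9% of all genes; median 0.0273), and the count of 8 fell to 3 without SAHA replicate 3 and to 5 without H93 replicate 1. The BH3-only gene PMAIP1 (0.22) and the pro-survival BCL2A1 (0.45) were higher, and the BH3-only gene BID (-0.24) and the caspase-8 inhibitor CFLAR (-0.21) were lower.

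**Figure D3:**
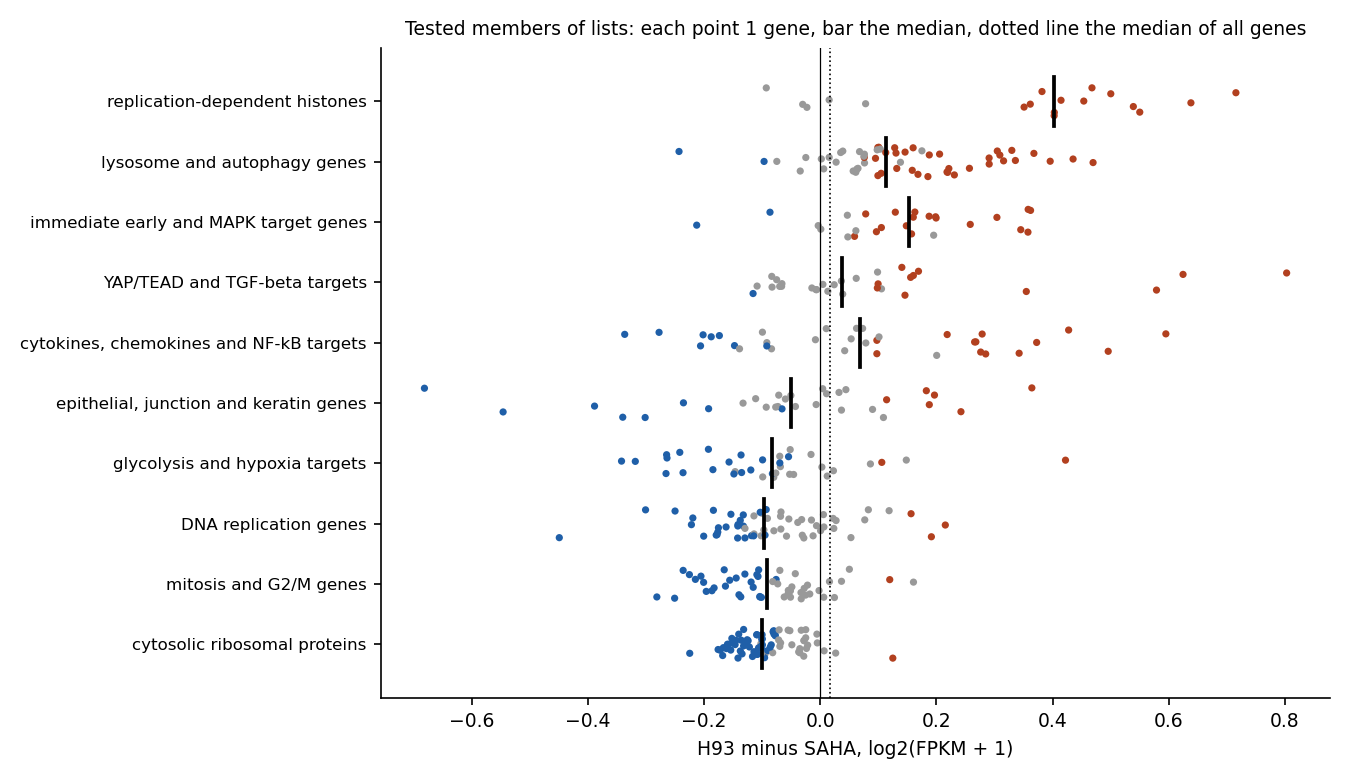
Difference H93 minus SAHA in log2(FPKM + 1) for every tested member of 10 gene lists, 1 point per gene (red, called higher; blue, called lower; grey, not past adjusted p 0.05), with the list's median (bar) and the median of all tested genes, 0.0159 (dotted line). The histone list has the highest median, 0.403, and the ribosomal proteins are packed around -0.100.

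Growth factor signalling through MAP kinases leaves a set of immediate early genes and feedback inhibitors. Most of the listed genes were higher with H93, but fewer of the transcription factors among them. Of 26 tested genes, 18 (69.2%) were higher and 2 (7.69%) were lower, beside 17.6% and 13.9% of all genes (median 0.153). Of the 11 feedback inhibitors 9 were higher, and of the 6 other targets 5 were. Of the 9 transcription factors 4 were higher (44.4%) and 2 were lower (22.2%), which are both lower genes of the list. The phosphatase DUSP6 had 12.7, 13.4 and 14.6 with DMSO, 21.1, 21.1 and 21.6 with SAHA and 26.5, 29 and 27.4 with H93. The difference was 0.36 (SE 0.047; limma, adjusted p = 0.000228), and the groups did not overlap. The related DUSP4 stood at 1.60 ± 0.154 with SAHA and 2.33 ± 0.0630 with H93 (0.36, adjusted p = 0.00213). The receptor signalling inhibitor SPRY4 stood at 7.32 ± 0.411 with SAHA and 9.27 ± 0.252 with H93 (0.30, adjusted p = 0.000575). The transcription factor EGR1 stood at 7.22 ± 0.528 with DMSO, 7.17 ± 0.190 with SAHA and 9.39 ± 0.614 with H93 (0.35, adjusted p = 0.000788). For EGR1 the DMSO and SAHA means lay within 1 SD of each other. The EGF receptor ligand HBEGF had 23.4, 23.4 and 24.1 with SAHA and 29.9, 30.6 and 31.2 with H93 (0.36, adjusted p = 0.000458). Of 22 growth factors and receptors, 6 were higher and 5 were lower (27.3% and 22.7%; median 0.0211), with the ligand AREG higher (0.21) and the receptor ERBB2 (-0.17) and the ligand PDGFB (-0.19) lower.

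Of 30 targets of YAP/TEAD and TGF-beta, 11 (36.7%) were higher with H93 and 1 (3.33%) was lower (against 17.6% and 13.9% of all genes; median 0.0374). Of the 15 YAP/TEAD targets 6 were higher, and outside ANKRD1 and CCN2 the called differences were small, as for AMOTL1, which binds YAP, at 0.17. Of the 15 TGF-beta genes 5 were higher, and that count was 3 without H93 replicate 2, H93 replicate 3 or SAHA replicate 2 and 2 without SAHA replicate 3. Of 18 integrins and laminins, 6 were higher and 3 were lower (33.3% and 16.7%; median 0.0526). The collagen-binding integrin subunit ITGA2 stood at 24.9 ± 0.614 with SAHA and 31.4 ± 0.402 with H93 (0.32, adjusted p = 5.53e-05). The laminin-332 chain LAMB3 stood at 249 ± 4.47 with SAHA and 314 ± 2.95 with H93 (0.33, adjusted p = 2.46e-06), while LAMA3, another chain of laminin-332, was lower (-0.14), as was ITGB5 (-0.15).

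Cytokine genes were more often higher with H93, and protease genes were called in both directions. Of 34 cytokines, chemokines and NF-kB targets, 13 (38.2%) were higher with H93 and 8 (23.5%) were lower (against 17.6% and 13.9% of all genes; median 0.0676). Of the 6 interleukins 3 were higher and 1 lower, and of the 8 chemokines 3 were higher and 1 lower. Of the 8 receptors 4 were higher and 2 lower, while of the 12 NF-kB feedback genes 3 were higher and 4 lower. The neutrophil chemokine CXCL8 had 47.3, 48.0 and 47.8 with DMSO, 97.9, 102 and 100.1 with SAHA and 145, 142 and 137 with H93. H93 minus SAHA came to 0.50 (SE 0.026; limma, adjusted p = 7.72e-07), and the groups did not overlap. CXCL1 stood at 12.8 ± 0.766 with SAHA and 17.6 ± 1.86 with H93 (0.43, adjusted p = 0.00131). IL11 stood at 32.5 ± 1.24 with SAHA and 42.4 ± 1.52 with H93 (0.37, adjusted p = 8.37e-05). IL24 stood at 1.37 ± 0.171 with DMSO, 28.2 ± 1.65 with SAHA and 35.9 ± 0.792 with H93 (0.34, adjusted p = 0.000816). The mean of IL24 was by far the lowest with DMSO. Of 17 matrix proteases and genes of the plasminogen system, 4 were higher and 3 were lower (23.5% and 17.6%; median 0.0587), and the 4 became 2 without H93 replicate 2. Of the 10 proteases among them 2 were higher and 2 lower (median -0.0596). The collagenase MMP1 had 8.21, 8.87 and 8.12 with DMSO, 69.4, 75.4 and 73.6 with SAHA and 101, 104 and 100.4 with H93. Between H93 and SAHA the difference was 0.48 (SE 0.038; limma, adjusted p = 1.14e-05). The plasminogen activator PLAU was lower with H93, at 304 ± 0.682 with DMSO, 454 ± 5.37 with SAHA and 391 ± 2.09 with H93 (-0.21, adjusted p = 2.48e-05), and so was the membrane-bound matrix metalloproteinase MMP14 (-0.19). The inhibitor SERPINE2, which blocks PLAU, had a difference of 0.32, and 3 of 7 clade B serpins were higher and 0 lower (42.9% higher; median 0.0721), with SERPINB2 at 3.69 ± 0.0803 with DMSO, 95.9 ± 4.09 with SAHA and 126 ± 3.36 with H93 (0.39, adjusted p = 2.29e-05). SERPINB7 stood at 23.7 ± 1.93 with SAHA and 32.4 ± 1.11 with H93 (0.44, adjusted p = 0.00290).

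Junction genes were more often lower than higher, and keratin genes were called in both directions. Of 31 tested epithelial genes, 8 were lower with H93 and 6 were higher (25.8% and 19.4%, against 13.9% and 17.6% of all genes; median -0.0507), and 6 of the 8 lower ones were among the 19 cadherin and junction genes. Of 7 tested keratin genes 2 were called higher and 1 lower (28.6% and 14.3%), and 6 had a difference above 0 (median 0.0364). Beside the claudins, P-cadherin CDH3 stood at 20.8 ± 0.658 with DMSO, 14 ± 0.543 with SAHA and 10.5 ± 0.0483 with H93 (-0.39, adjusted p = 3.95e-05). The desmosomal plakophilin PKP3 stood at 22.3 ± 0.789 with DMSO, 12.1 ± 0.752 with SAHA and 9.38 ± 0.439 with H93 (-0.34, adjusted p = 0.000394). The keratin gene KRT19 had 169.9, 168 and 171 with DMSO, 322, 318 and 339 with SAHA and 418, 424 and 419 with H93. The difference was 0.36 (SE 0.024; limma, adjusted p = 3.44e-06), in the opposite direction to the junction genes named. Of 14 mesenchymal genes, 4 were higher and 1 was lower (28.6% and 7.14%; median 0.0376), with the collagens COL12A1 (0.25) and COL4A2 (0.17) higher.

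Genes of the lysosome and of autophagy were mostly higher with H93. Of 57, 33 (57.9%) were higher and 2 (3.51%) were lower (against 17.6% and 13.9% of all genes; median 0.113). The vacuolar proton pump acidifies lysosomes, and 14 of its 15 listed genes were higher (median 0.160), with all 15 differences above 0. The catalytic subunit ATP6V1A had 12.8, 12.5 and 12.8 with DMSO, 19.0, 18.5 and 18.8 with SAHA and 25.2, 25 and 24.7 with H93. H93 minus SAHA came to 0.40 (SE 0.029; limma, adjusted p = 6.4e-06), and the groups did not overlap. ATP6V1D stood at 47.2 ± 1.66 with SAHA and 61.2 ± 2.69 with H93 (0.37, adjusted p = 4e-05). The membrane subunit ATP6V0B stood at 81.4 ± 2.52 with SAHA and 103 ± 1.15 with H93 (0.34, adjusted p = 2.57e-05). The remaining pump genes had differences from 0.0950 to 0.32, and several passed narrowly: the count of 14 was 9 without H93 replicate 2, without H93 replicate 3, with no filter on low values and under rescaling by median ratios. Of 22 autophagy genes 11 were higher and 0 lower, with the phosphoinositide-binding WIPI1 at 4.29 ± 0.311 with SAHA and 6.15 ± 0.350 with H93 (0.44, adjusted p = 0.000263) and MAP1LC3B2, whose reads are hard to part from MAP1LC3B, at 0.47. Of 20 lysosomal genes 8 were higher and 2 lower, with the cholesterol carrier NPC2 at 68.8 ± 2.01 with DMSO, 125 ± 2.60 with SAHA and 149 ± 3.53 with H93 (0.26, adjusted p = 8.37e-05), and the 8 became 5 without H93 replicate 2.

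**Figure D4:**
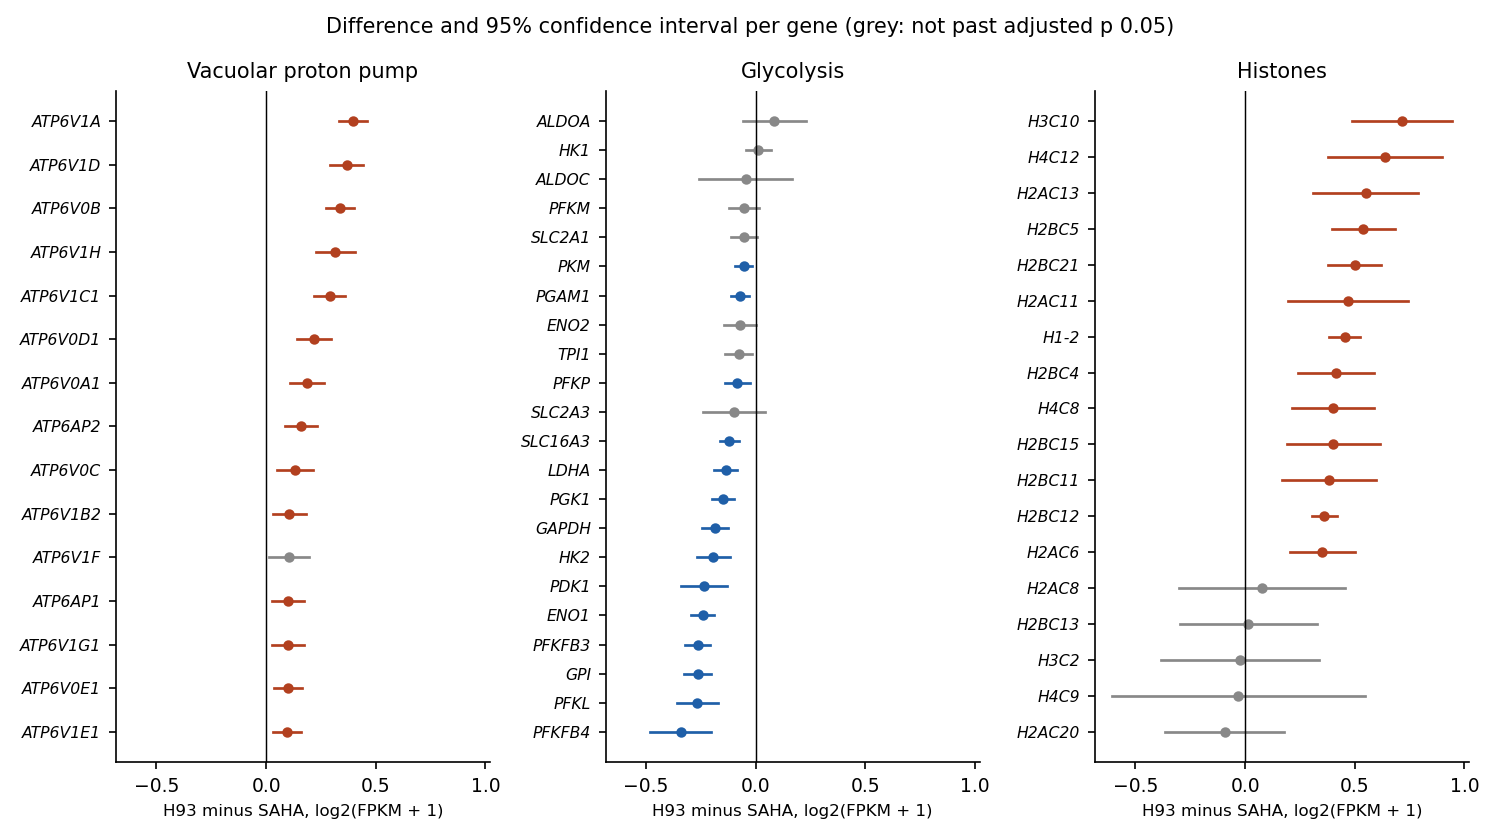
Difference H93 minus SAHA in log2(FPKM + 1) with its 95% confidence interval for the 15 vacuolar proton pump genes, 22 glycolysis genes and 18 replication-dependent histone genes tested (red, called higher; blue, called lower; grey, not past adjusted p 0.05). All 15 pump genes lie above 0, 14 of the 22 glycolysis genes were called lower, and the 5 histone genes not called have wide intervals.

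Glycolytic genes were mostly lower. Of 22, 14 were lower with H93 and 0 were higher (median -0.109), and with hypoxia targets the list had 18 of 35 (51.4%) lower and 2 (5.71%) higher (against 13.9% and 17.6% of all genes; median -0.0826). GAPDH, often used as a reference gene, had 2511, 2521 and 2533 with DMSO, 2107, 2037 and 2181 with SAHA and 1804, 1863 and 1895 with H93. Between H93 and SAHA the difference was -0.18 (SE 0.026; limma, adjusted p = 0.00043), and the 3 groups were ordered DMSO, SAHA, H93 downward. GPI, the isomerase of glucose 6-phosphate, stood at 45.1 ± 1.55 with SAHA and 37.3 ± 0.849 with H93 (-0.26, adjusted p = 8.72e-05). The phosphofructokinase PFKL stood at 38.5 ± 2.51 with SAHA and 31.8 ± 1.25 with H93 (-0.27, adjusted p = 0.00092). The kinase-phosphatase PFKFB4 stood at 4.94 ± 0.535 with SAHA and 3.68 ± 0.187 with H93 (-0.34, adjusted p = 0.00196). These 3 enzymes act in or on the upper steps of glycolysis. Among hypoxia genes the mitophagy receptor BNIP3 was lower (-0.32) and EPAS1, which encodes HIF-2alpha, was higher, at 18 ± 0.340 with DMSO, 8.77 ± 0.693 with SAHA and 12.1 ± 0.272 with H93 (0.42, adjusted p = 8.93e-05).

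On the deposited scale most ribosomal protein genes were lower, by small amounts. Of 76, 49 (64.5%) were lower with H93, 1 (1.32%) was higher and 26 did not pass, against 13.9% and 17.6% of all genes, with differences from -0.225 to 0.125 (median -0.100). RPL12 had 827, 828 and 838 with DMSO, 832, 861 and 854 with SAHA and 716, 737 and 726 with H93. The difference was -0.22 (SE 0.020; limma, adjusted p = 2.94e-05). RPL6 (-0.17) and RPS3 (-0.18) were also lower. The 49 became 24 under quantile normalization and 32 with no filter on low values, and under quantile normalization RPS2, RPS18 and RPS27 were among the genes that lost their calls and the difference of RPLP0 turned from -0.08 to 0.037. Together with GAPDH, the genes RPS2, RPS18, RPS27 and RPLP0 were the 5 at the highest mean level among those called, with SAHA means of 2252, 1914, 1853 and 1874 against H93 means of 1997, 1746, 1698 and 1772. Of 33 ribosome biogenesis genes 15 were lower and 0 higher (median -0.0797), led by UTP20 (-0.28), nucleolin NCL (-0.27) and nucleophosmin NPM1 (-0.22). In the MYC network 3 of 9 were higher, among them MAX, the partner of MYC (0.22), and MXD1, which competes with MYC for MAX, at 1.43 ± 0.0717 with SAHA and 2.57 ± 0.323 with H93 (0.55, adjusted p = 0.000172).

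Lipid genes were mixed. Of 23 fatty acid synthesis genes 8 were lower with H93 and 4 were higher (34.8% and 17.4%, against 13.9% and 17.6% of all genes; median 0.0165), and the 4 fell to as few as 1 without H93 replicate 1 and to 2 without H93 replicate 2 or SAHA replicate 2. The median ran from -0.028 to 0.035 when 1 library was left out. Fatty acid synthase FASN stood at 65.4 ± 2.40 with DMSO, 37.6 ± 2.24 with SAHA and 32.9 ± 0.866 with H93 (-0.19, adjusted p = 0.00526). The desaturase SCD stood at 151 ± 1.78 with DMSO, 86.1 ± 1.59 with SAHA and 75.5 ± 0.748 with H93 (-0.19, adjusted p = 0.000147). The regulator SREBF1 stood at 13.7 ± 0.745 with DMSO, 5.50 ± 0.321 with SAHA and 4.63 ± 0.262 with H93 (-0.21, adjusted p = 0.0123). All 3 means were highest with DMSO and lowest with H93. Of 31 cholesterol genes 6 were lower and 3 higher (19.4% and 9.68%; median 0.00718), with the reductase TM7SF2 among those higher (0.30), and the 6 became 3 without SAHA replicate 3. Of 58 respiratory chain subunits 47 did not pass, 7 were higher and 4 were lower (median -0.00739), shares of 12.1% and 6.9% beside 17.6% and 13.9% over all genes. The 7 became 3 without H93 replicate 2 and 4 without H93 replicate 1 or SAHA replicate 1. The 4 became 1 without H93 replicate 1 or SAHA replicate 3, 2 without H93 replicate 2 and 10 without SAHA replicate 1.

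Stress programmes differed in part. Of 31 genes of the integrated stress response 12 (38.7%) were higher with H93 and 5 (16.1%) were lower (against 17.6% and 13.9% of all genes; median 0.0666). The tryptophanyl-tRNA synthetase WARS1 stood at 47.4 ± 1.38 with SAHA and 60.8 ± 1.04 with H93 (0.35, adjusted p = 2.57e-05). The glutathione-degrading CHAC1 stood at 4.14 ± 0.312 with SAHA and 5.39 ± 0.281 with H93 (0.32, adjusted p = 0.00170). The leucine sensor SESN2 stood at 4.83 ± 0.101 with SAHA and 6.10 ± 0.110 with H93 (0.28, adjusted p = 0.00230), whereas DDIT4, an inhibitor of mTORC1, was lower, at 68.1 ± 1.38 with DMSO, 32.9 ± 0.774 with SAHA and 26.5 ± 0.688 with H93 (-0.30, adjusted p = 5.53e-05). The 5 lower genes became 3 without SAHA replicate 3. Of 29 folding and heat shock genes 4 were higher and 6 lower (13.8% and 20.7%; median 0.00351), with the endoplasmic reticulum proteins PDIA4 (-0.19), PDIA6 (-0.15) and HSPA5 (-0.12) lower, and the 4 became 2 without H93 replicate 1 or 2. Of 30 NRF2 and oxidative stress genes 6 were higher and 8 lower (20.0% and 26.7%; median -0.0304), and the 8 became 5 without H93 replicate 1 or 2. KEAP1, which holds NRF2 in check, was lower, at 21.8 ± 0.587 with DMSO, 11.8 ± 0.617 with SAHA and 9.52 ± 0.232 with H93 (-0.28, adjusted p = 0.000476), and the cystine transporter SLC7A11 (0.27) and the aldo-keto reductase AKR1C3 (0.51), which has close relatives in sequence, were higher.

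Among immune genes no single direction prevailed. Of 20 tested interferon-stimulated genes 6 were lower with H93 and 2 were higher (30.0% and 10.0%, against 13.9% and 17.6% of all genes; median -0.0183), with ISG20 at 2.28 ± 0.183 with SAHA and 1.67 ± 0.122 with H93 (-0.30, adjusted p = 0.00401). STAT2 stood at 17.1 ± 0.315 with SAHA and 20.3 ± 0.290 with H93 (0.23, adjusted p = 0.000269). The 6 became 3 without H93 replicate 1 or 2 and 2 without SAHA replicate 3, and the median ran from -0.088 to -0.018 when 1 library was left out. Of 23 antigen presentation genes 6 were higher and 4 lower (26.1% and 17.4%, against 17.6% and 13.9% of all genes; median 0.0121). The class I light chain B2M was higher, at 321 ± 5.82 with DMSO, 476 ± 9.47 with SAHA and 547 ± 4.60 with H93 (0.20, adjusted p = 8.92e-05), while the peptidase ERAP1 (-0.19) and the invariant chain CD74 (-0.35) were lower with PSMB10. The 6 higher genes became 2 without SAHA replicate 1 and 3 without H93 replicate 2, H93 replicate 3 or SAHA replicate 2. Of 9 acute-phase and complement genes 3 were lower and 0 higher (33.3% lower; median -0.17), with the transcription factor CEBPD at 49.4 ± 0.660 with DMSO, 14.5 ± 0.941 with SAHA and 11.3 ± 0.554 with H93 (-0.33, adjusted p = 0.000326). The complement protease C1R stood at 1.496 ± 0.109 with SAHA and 0.840 ± 0.313 with H93 (-0.45, adjusted p = 0.01001).

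Of 32 tubulin, actin and contractile genes 6 were higher and 8 lower (18.8% and 25%, against 17.6% and 13.9% of all genes; median -0.00833), with the tropomyosin TPM4 (-0.25) and the tubulin TUBB6 (-0.20) lower and TUBA1A, whose coding sequence is close to that of other tubulins, higher (0.20). Of 15 retinoid and steroid genes 6 were higher and 5 lower (40.0% and 33.3%; median -0.0351), so that only 4 did not pass. The retinal reductase DHRS3 stood at 6.82 ± 0.473 with DMSO, 2.09 ± 0.305 with SAHA and 1.29 ± 0.147 with H93 (-0.43, adjusted p = 0.00165). The retinoic acid receptor RARG stood at 14.4 ± 0.681 with SAHA and 11.5 ± 0.537 with H93 (-0.30, adjusted p = 0.000388), while the aryl hydrocarbon receptor AHR (0.23) and its target and repressor TIPARP (0.28) were higher.

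**Figure D5:**
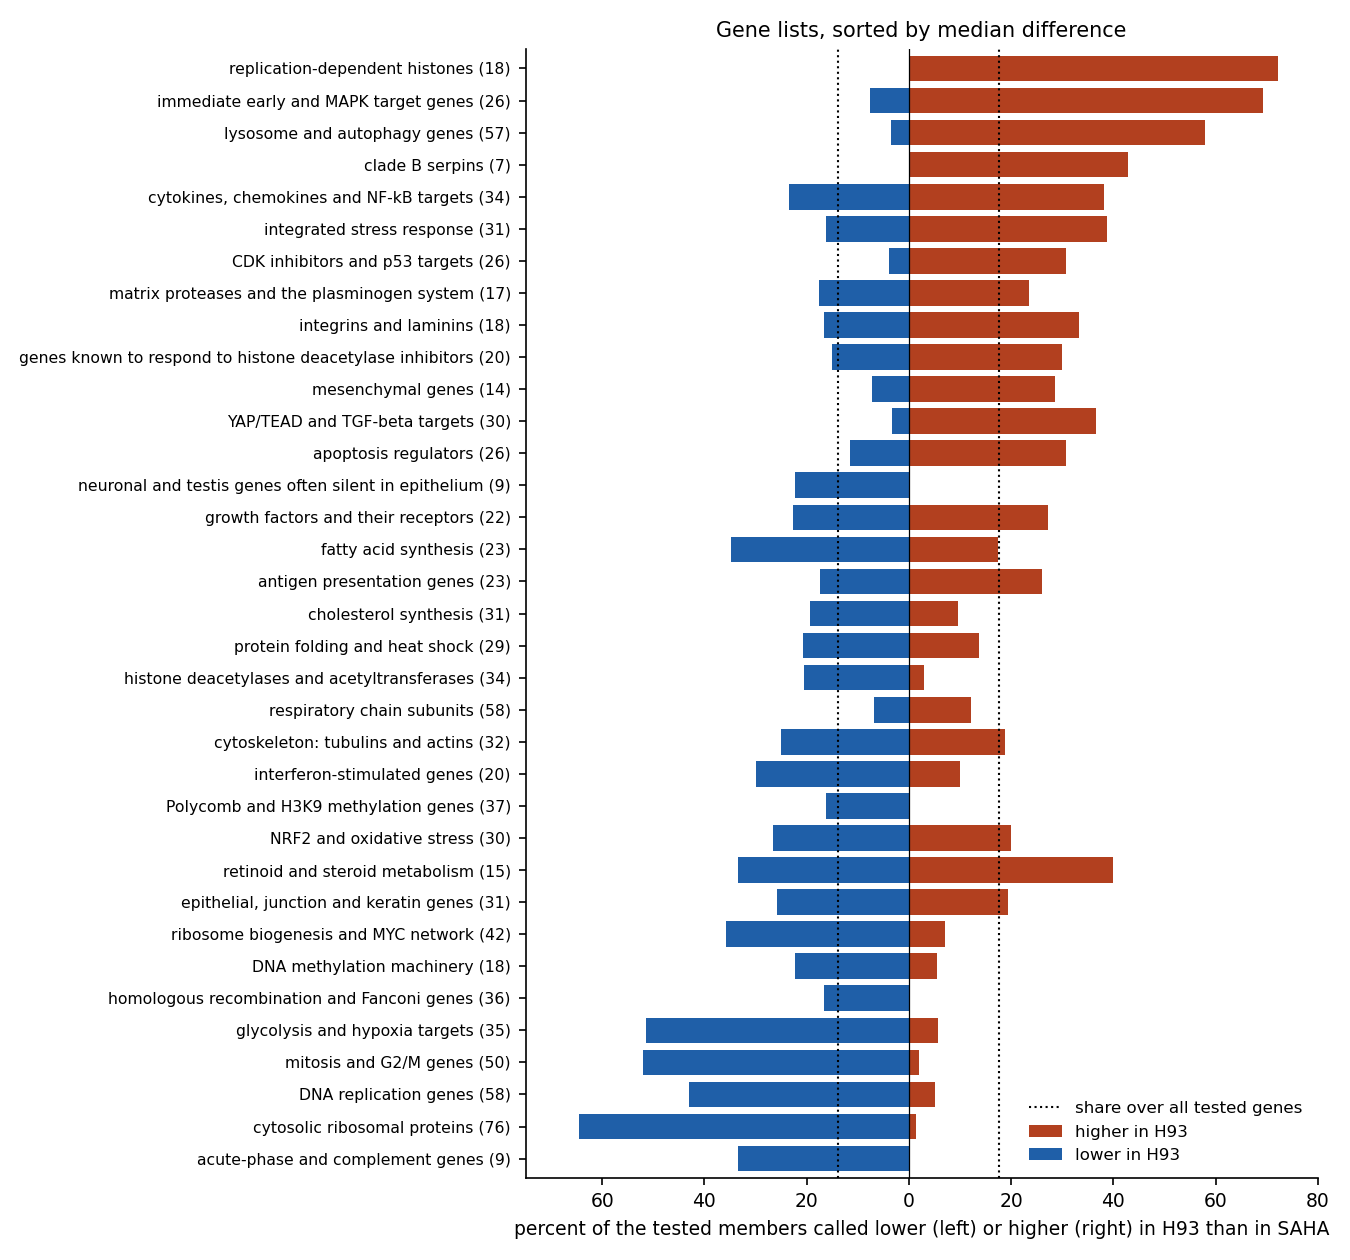
Percent of the tested members of each of 35 gene lists (number in brackets) called lower (blue, left) or higher (red, right) with H93 than with SAHA, sorted by median difference, with dotted lines at the shares over all tested genes, 13.9% lower and 17.6% higher. The histone list reaches 72.2% higher and the ribosomal protein list 64.5% lower.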

How the data were processed

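Transcripts of DU145 cells were sequenced after 6 days with DMSO, H93 or SAHA, in 3 libraries each. TRIzol and a stranded TruSeq mRNA kit were used, per the labels' protocols. The authors deposited 1 table of FPKM, which corrects each gene's fragments for transcript length and for library size. Trimmomatic 0.36, HISAT2, Cufflinks and GRCh38.p13 are named by the submitters' processing notes, with no role for any. The annotation is not given in the sources used here, nor is the strand setting. Where overlapping or near-identical genes share reads, the split between them is therefore uncertain.

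Samples were grouped and numbered by their titles. Genes were kept if 3 or more of the 9 libraries had an FPKM of 1 or more, and values were taken as log2(FPKM + 1). A linear model over the 9 libraries was fitted with limma 3.58.1 (R 4.3.3), using a mean for each group and variances moderated by empirical Bayes along a trend with level (residual degrees of freedom 6, prior 6.05). Two-sided p-values were adjusted over all kept genes by the Benjamini-Hochberg method, and a call needed an adjusted p under 0.05. An exact permutation test of 3 libraries against 3 has 0.1 as its smallest p, so none was used for single genes. Read counts were not recovered, so no counting interval is given.

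The members, gene lists and tests were chosen with earlier results of these data known. The 35 lists are described by counts, shares and medians, to be read against those of all tested genes, with no test of any list. Named genes were the 15 largest rises and the 15 largest falls among called genes whose groups did not overlap (unnamed loci skipped), 8 genes tied to the compounds' targets, up to 5 members of each list with the largest called differences, and the 5 called genes of highest level. Genes outside the rule are said to be. A few genes that the rule or the marker lists include are not reported here. Gene positions came from GENCODE release 29 and promoter sequences from RefSeq (GRCh38.p14).

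The fit was tested on simulated data for the 11525 genes of this comparison. It called 95.5% of 67 genes changed by 1.25-fold, all 67 changed by 1.5-fold and all 66 changed by 2-fold. Of its calls 5.29% were false, and 0 genes were called when none was changed. The simulated noise was independent and normal, with the fit's own moderated variances, and far fewer genes were changed than the 31.5% called here. The simulation therefore checks the procedure under its own assumptions and does not give the error rate of the calls in the measured data. Alternatives were other pseudocounts, filters, scalings, moderation and thresholds, a replicate block, the 6 libraries alone, and leaving out each library in turn.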

Additional observations from a re-analysis of the deposited data

How the results depend on the processing

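The count of genes that differed between H93 and SAHA stayed within 1.5 times of 3629 under every alternative run, from 3104 with a mean FPKM of at least 5 to 3747 with a fixed FPKM sum, and from 2794 to 3554 when 1 library was left out. The split moved with the scaling: 56.0% of the called genes were higher with H93, against 47.8% after median-ratio rescaling, 48.6% after quantile normalization and 62.8% with a fixed FPKM sum. The 17 genes at 1.5-fold became 67 with a pseudocount of 0.1 (31 higher and 36 lower, against 11 and 6), 4 with a pseudocount of 5, 7 with a mean FPKM of at least 5, 2 at a 2-fold threshold and 2 under limma's test against 1.5-fold (both higher), since each of these changes what counts as 1.5-fold or which genes are tested; they numbered 16 to 20 without 1 library. Genes with an interval inside 1.5-fold numbered 11365 to 11405 without 1 library and 11017 with a pseudocount of 0.1.

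Same-numbered H93 and SAHA libraries did not deviate together (correlations of 0.0072, -0.0031 and -0.0044), so the numbers were not taken to pair them; with the replicate block 3426 genes differed and 17 did so by 1.5-fold.

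Of the 186 called genes among the 191 named by the rule, 153 kept their call in all 19 alternatives and 27 lost it without at least 1 library. The difference of RPLP0 turned to 0.037 under quantile normalization. HDAC1, not called, turned to 0.0017 with a fixed FPKM sum, 0.0037 without H93 replicate 2 and 0.0095 without SAHA replicate 2, within a range of -0.036 to 0.0095 when 1 library was left out. HDAC3, not called, turned to -0.0039 without SAHA replicate 2, within a range of -0.0039 to 0.082. DNMT3A passed after median-ratio rescaling (limma, adjusted p = 0.0442), after quantile normalization (0.0344) and without SAHA replicate 3 (0.0452), and DNMT3B without SAHA replicate 3 (0.0343); without SAHA replicate 1 the difference of DNMT3B was -0.056 (0.526). The cause was not tested for any of these. A list's median turned its sign under at least 1 alternative for 12 of the 35 lists, and for 8 of them without 1 library (antigen presentation, cholesterol synthesis, fatty acid synthesis, growth factors, deacetylases and acetyltransferases, neuronal and testis genes, protein folding, and respiratory chain). Of the 2882 genes at the lowest level 18.6% were called, against 44.3% of the 2881 at the highest, with median standard errors of 0.065 and 0.0301; the absolute depth is unknown, and the parts of depth and of the log2(FPKM + 1) scale in this were not tested.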

Other observations

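The pathway names in the deposited table gave another grouping of the genes, in part overlapping the lists (DNA replication is in both). Among 289 KEGG pathways with at least 15 tested genes, the lowest medians (H93 minus SAHA, log2(FPKM + 1)) were those of antifolate resistance (-0.124, with 9 of 23 genes lower and 1 higher), DNA replication (-0.104, with 18 of 35 lower and 1 higher) and base excision repair (-0.0932, with 16 of 33 lower and 2 higher). Mismatch repair had 7 of 22 lower and 1 higher (median -0.0708), the pentose phosphate pathway 7 of 22 lower and 1 higher (-0.0705), and one carbon pool by folate 7 of 17 lower and 0 higher (-0.0684). The highest medians were those of collecting duct acid secretion (0.0991, with 10 of 17 higher and 1 lower), rheumatoid arthritis (0.0962, 23 of 52 higher and 6 lower) and the synaptic vesicle cycle (0.0944, 20 of 46 higher and 3 lower). SNARE interactions in vesicular transport, the machinery of membrane fusion, had 10 of 29 higher and 0 lower (0.0867), GPI-anchor biosynthesis 10 of 23 higher and 2 lower (0.0749), and other glycan degradation 6 of 16 higher and 1 lower (0.082). Pathways share genes with one another and with the lists, and that overlap was not counted. A high or low median here is therefore not a result separate from those of the lists. No test of a pathway was made. Over all tested genes 17.6% were higher and 13.9% lower, with a median of 0.0159.

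Of the 17 genes called at 1.5-fold, 3 fell outside the rule for named genes and are given here after their values were seen. SMIM11A had an FPKM of 7.59, 0.776 and 12.5 in the SAHA libraries and 1.32, 0.947 and 0.594 in the H93 libraries, so 1 SAHA library lay inside the H93 range and the difference of -1.61 (limma, adjusted p = 0.0355) rests on the other two. EIF3C had 15.9, 32.2 and 33.1 with H93 and 13.01, 17.9 and 16.8 with SAHA, again with 1 H93 library inside the SAHA range (0.68, limma, adjusted p = 0.0377). Both genes have a near-identical copy elsewhere in the genome. LOC105372440 stood at 1.45, 2.35 and 1.46 with SAHA and 1.22, 0.250 and 0.732 with H93 (-0.69, limma, adjusted p = 0.0298). SMIM11A and LOC105372440 passed the filter only with the help of their SAHA libraries, the group in which they were high.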
